A study of Mus musculus with 38 samples.

Results

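The 10 genes described here, Atf4, Ddit3, Trib3, Chac1, Sesn2, Asns, Psat1, Phgdh, Shmt2 and Mthfd2, are ATF4 and widely used readouts of its program in the integrated stress response. They were taken from the deposited count tables by their gene symbols, each symbol matched 1 row, and together they are 10 of the 46078 gene rows. RNA was sequenced from isolated intestinal epithelial cells of 38 C57BL/6 mice, 1 library per animal. KO mice carried floxed Hk2 and a Cre recombinase driven by the Villin promoter, which is active in intestinal epithelium, so that other cell types keep Hk2, and WT mice were littermates with floxed Hk2 and no stated Cre. Mice were untreated (day 0) or had received 1.5% dextran sodium sulfate (DSS), a chemical that injures the colon epithelium, for 3 or 7 days. There were 4 WT and 5 KO animals on day 0, 7 WT and 8 KO animals on day 3, and 7 animals of each genotype on day 7. The DSS mice were males aged 10 to 12 weeks, co-housed across genotypes. The labels give a young range, 9 to 11 weeks, and an old range, 86 to 92 weeks, for basal phenotyping; which of these ages, and which sex, the day 0 mice had is not given in the sources used here. The series text speaks of colon tissue, the sample labels of isolated epithelial cells.

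In the integrated stress response, kinases that sense amino acid shortage, misfolded protein in the endoplasmic reticulum, double-stranded RNA or heme shortage and mitochondrial trouble phosphorylate the initiation factor eIF2. General protein synthesis then slows, while translation of the ATF4 transcription factor goes up because of short reading frames ahead of its own. ATF4 protein turns on genes for amino acid supply, serine synthesis and one-carbon metabolism, and, under lasting stress, genes that dampen the response or promote cell death. Since much of this control acts on translation, the level of Atf4 mRNA measured here does not report the level of ATF4 protein.

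The ATF4 heterodimers with C/EBP proteins bind composite DNA elements of the form TGATGNAA. This sequence was searched on both strands (TGATGNAA and TTNCATCA) in RefSeq promoter windows of the build GRCm38.p6, which run from 250 bases before to 50 after the first transcribed base. All 10 genes matched, with 11 windows. It was present in 3 of the 11 windows, in 14 of 56 windows of the 48 matched genes of 6 wider pathway lists used below, and in 3.97% of all 32851 windows. The 3 windows belonged to Asns, Chac1 and Trib3. The first 2 are shown because they are the 2 of the 10 genes that rose between days 3 and 7 in WT. In Trib3 the match (TTACATCA) lay after the RefSeq start. RefSeq starts differ from those of the counted rows given below, at 152344060 against 152344032 for Trib3 and 7693209 against 7693254 for Asns. Before and after the start therefore refer to RefSeq alone. Capitals mark the match, the sequences run 5′ to 3′ on the strand of the gene, and a match is a description of the letters, not of binding. The Asns stretch covers the 150 bases before the start (chr6:7693210-7693359, minus strand) and the Chac1 stretch starts 250 bases before it (chr2:119350992-119351141, plus strand).
Asns: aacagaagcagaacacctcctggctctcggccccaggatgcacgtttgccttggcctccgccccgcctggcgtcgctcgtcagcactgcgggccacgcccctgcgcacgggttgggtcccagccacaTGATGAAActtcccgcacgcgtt
Chac1: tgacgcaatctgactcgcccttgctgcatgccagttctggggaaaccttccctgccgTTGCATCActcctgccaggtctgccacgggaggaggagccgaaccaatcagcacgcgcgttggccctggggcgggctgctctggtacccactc

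Each library held 10.5 to 60.6 M counts (M, mega, for counts). Day 0 libraries belong to another library series, by the prefix of their names in the deposited tables, than those of days 3 and 7, so wherever day 0 is used, day and series cannot be told apart. Hk2, the targeted gene, was 254 to 449 counts per M (CPM, scaled by the trimmed mean of M-values, TMM) in WT day 0 and 33.1 to 118 CPM in KO day 0. It was 97.0 to 220.5 CPM in WT day 3, 68.4 to 435 CPM in KO day 3, 228 to 611 CPM in WT day 7 and 56.1 to 268 CPM in KO day 7, so that KO libraries overlapped the WT range on days 3 and 7. The library labelled d3_KO_345 went against its label, with 435 CPM of Hk2, above every WT day 3 library and a KO day 3 median of 108 CPM, and it also held the most neutrophil marker RNA of day 3 (44.1 CPM summed over 8 markers, against 0.214 to 3.32 CPM in the other 14 day 3 libraries). On day 7, d7_KO_420 was the 1 KO library inside the WT range (268 CPM of Hk2), and it had the highest neutrophil marker sum of all KO day 7 libraries. Counts of calls in KO are given with and without d3_KO_345 and d7_KO_420. The library d3_WT_346 was left out only among the fits that drop each library in turn. All 8 epithelial markers were detected in every library. Summed leukocyte markers (12 genes) were 32.2 to 166 CPM in WT day 3 and 166.5 to 645 CPM in WT day 7, and 60.6 to 216 CPM in KO day 3 and 278 to 887 CPM in KO day 7. The highest WT day 3 sum was that of d3_WT_381, in which Cd74 alone was 138 CPM and 10 of the 12 markers were detected. Summed neutrophil markers reached 85.1 to 967.5 CPM in WT day 7 and 35.4 to 1505 CPM in KO day 7. In bulk RNA, fewer cells of a type and less RNA per cell cannot be told apart.

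Atf4 mRNA was by far the most abundant of the 10 per length, at 148.5 CPM per kilobase of exon over all 38 libraries. Ddit3 (15.1), Asns (12.9) and Shmt2 (10.2 CPM per kilobase) formed a middle group, followed by Sesn2 (5.68), Mthfd2 (3.30), Phgdh (3.09) and Psat1 (2.36). Chac1 (0.987) and Trib3 (0.179 CPM per kilobase) were the lowest, and Trib3 rested on 2 to 44 counts per library, near the level of 3 counts (0.0452 to 0.352 CPM). The first and the last 2 places were the same in all 6 groups. Asns passed Ddit3 in both day 7 groups, and Shmt2 passed it in KO day 7 only by the group means. The plot of levels by library shows all 10 genes in the 6 groups.

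**Figure D1:**
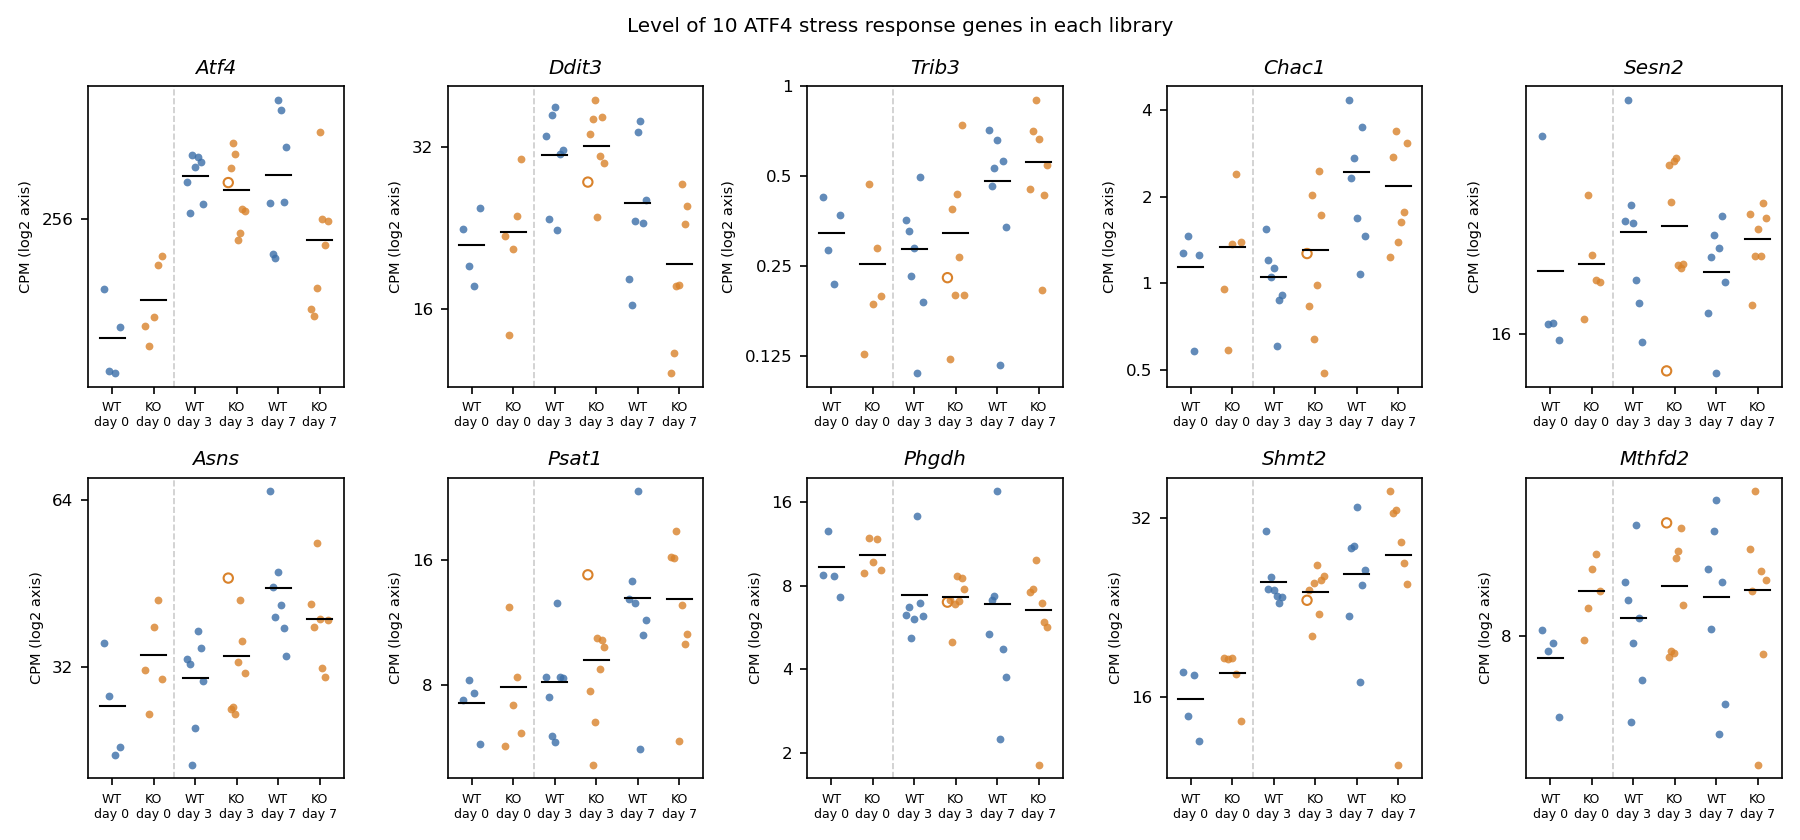
Level of each of the 10 genes in the 38 libraries, in CPM on a log2 axis; points are libraries, black bars group means, the open circle is the library labelled d3_KO_345, and the dashed line separates the day 0 library series. Chac1 and Asns sit higher in WT day 7 than in WT day 3, and Ddit3 sits lower in KO day 7 than in KO day 3, in each case with some overlap between libraries.

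Atf4 encodes the transcription factor at the centre of the response (ENSMUSG00000042406; GRCm38 chr15:80255184-80257540, plus strand). In WT day 0 it was 146, 147, 172 and 198 CPM, and in KO day 0 161, 173, 179, 217 and 223 CPM. The lowest, median and highest libraries were 261.5, 309 and 323 CPM in WT day 3 and 237, 278.5 and 337 CPM in KO day 3. On day 7 they were 222, 272 and 395 CPM in WT and 179, 233 and 350 CPM in KO. WT day 7 (mean 299.6 ± 70.6 CPM, SD, n = 7) and WT day 3 (298.5 ± 24.7 CPM, SD, n = 7) were level, but day 7 spread more, with d7_WT_386 and d7_WT_393 highest. All 6 groups overlapped with their neighbours in the order of the means.

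Ddit3, or CHOP, is a transcription factor linked to cell death under lasting stress (ENSMUSG00000025408; chr10:127290774-127296288, plus strand). Its row overlaps Mars, the methionyl-tRNA synthetase gene, on the other strand, and Gm4189, and the counting ignored strand, so reads of these genes were not separated by strand. Day 0 libraries had 17.7, 19.2, 22.6 and 24.7 CPM in WT and 14.3, 20.7, 21.9, 23.8 and 30.45 CPM in KO. The lowest, median and highest libraries were 22.4, 31.6 and 38.1 CPM in WT day 3 and 23.7, 32.4 and 39.3 CPM in KO day 3. In WT day 7 they were 16.3, 23.4 and 35.8 CPM, and in KO day 7 12.2, 17.7 and 27.3 CPM. KO day 3 had the highest mean (32.2 ± 5.17 CPM, SD, n = 8) and KO day 7 the lowest (19.4 ± 5.82 CPM, SD, n = 7), and 5 of the 7 KO day 7 libraries lay below every KO day 3 library.

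Trib3 is a pseudokinase that feeds back on ATF4 and CHOP (ENSMUSG00000032715; chr2:152337422-152344032, minus strand). Group means ran from 0.254 ± 0.133 CPM (SD, n = 5) in KO day 0 to 0.558 ± 0.224 CPM (SD, n = 7) in KO day 7, and every pair of neighbours overlapped. Chac1, a glutathione-degrading enzyme, is induced late in the response (ENSMUSG00000027313; chr2:119351229-119354381, plus strand). It was low on days 0 and 3. WT day 0 libraries had 0.580, 1.25, 1.27 and 1.46 CPM, and KO day 0 libraries 0.587, 0.955, 1.37, 1.39 and 2.40 CPM. The lowest, median and highest were 0.603, 1.05 and 1.55 CPM in WT day 3 and 0.486, 1.13 and 2.45 CPM in KO day 3. On day 7 they were 1.08, 2.33 and 4.36 CPM in WT and 1.24, 1.77 and 3.40 CPM in KO, from 36 to 196 counts per library. In WT day 7, 5 of 7 libraries were above every WT day 3 library.

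Sesn2, a stress-induced inhibitor of mTORC1 signalling (ENSMUSG00000028893; chr4:132492032-132510501, minus strand; overlapping Gm12981), was the steadiest of the 10. Its group means stayed between 18.6 ± 2.29 CPM (SD, n = 7) in WT day 7 and 20.8 ± 3.53 CPM (SD, n = 8) in KO day 3. Asns makes asparagine and is a standard readout of amino acid limitation (ENSMUSG00000029752; chr6:7675169-7693254, minus strand). Its day 0 libraries had 22.2, 22.9, 28.3 and 35.3 CPM in WT and 26.3, 30.3, 31.6, 37.7 and 42.2 CPM in KO. On day 3 the lowest, median and highest were 21.3, 32.3 and 37.1 CPM in WT and 26.3, 31.9 and 46.3 CPM in KO. On day 7 they were 33.4, 41.3 and 66.4 CPM in WT and 30.6, 38.8 and 53.6 CPM in KO. The highest KO day 3 value was that of the library labelled d3_KO_345. In WT, 6 of 7 day 7 libraries were above every day 3 library.

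Phgdh, Psat1, Shmt2 and Mthfd2 serve serine synthesis and mitochondrial one-carbon metabolism. Phgdh (ENSMUSG00000053398; chr3:98313170-98339990, minus strand) catalyses the first step of serine synthesis. It was the only one of the 10 with its 2 highest group means on day 0, at 9.32 ± 2.29 CPM (SD, n = 4) for WT and 10.3 ± 1.45 CPM (SD, n = 5) for KO. Its lowest mean was 6.52 ± 2.51 CPM (SD, n = 7) in KO day 7. WT day 7 ran from 2.25 to 17.5 CPM with a median of 5.36 CPM, and KO day 7 from 1.81 to 9.92 CPM with a median of 6.91 CPM. Psat1, the next enzyme of the pathway (ENSMUSG00000024640; chr19:15904678-15947337, minus strand; overlapping the pseudogene Gm3329), averaged 7.28 ± 1.06 CPM (SD, n = 4) for WT and 7.95 ± 2.65 CPM (SD, n = 5) for KO on day 0. On day 7 the means were 13 ± 5.38 CPM (SD, n = 7) for WT and 12.9 ± 4.48 CPM (SD, n = 7) for KO. Both day 7 groups held libraries under 6 CPM.

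Shmt2 turns serine into glycine in mitochondria (ENSMUSG00000025403; chr10:127517123-127522444, minus strand; overlapping Ndufa4l2). WT day 0 libraries had 13.5, 14.9, 17.4 and 17.6 CPM and KO day 0 libraries 14.6, 17.5, 18.5, 18.6 and 18.6 CPM. The lowest, median and highest libraries were 23.0, 24.2 and 30.5 CPM in WT day 3 and 20.3, 24.6 and 26.7 CPM in KO day 3, clear of all day 0 libraries. On day 7 they were 16.9, 26.2 and 33.4 CPM in WT and 12.3, 29.2 and 35.6 CPM in KO, a wider spread that reached down into the day 0 range through d7_WT_393 and d7_KO_420. Between KO day 3 and KO day 0 lay the only pair of neighbours in the order of the means, over all 10 genes, whose libraries did not overlap. These 2 groups belong to different library series, and 23.9% of all genes tested had no overlap between them. Mthfd2, the mitochondrial methylene-tetrahydrofolate dehydrogenase (ENSMUSG00000005667; chr6:83305691-83317606, minus strand; overlapping Gm43890), stayed between 7.42 ± 0.920 CPM (SD, n = 4) in WT day 0 and 9.49 ± 1.83 CPM (SD, n = 8) in KO day 3.

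The comparison of day 7 with day 3 of DSS, within 1 library series, asked which of the genes changed as colitis developed. In WT, Chac1 rose 2.29-fold (log2 fold change 1.20, SE 0.29, edgeR quasi-likelihood adjusted p 0.00946) and Asns rose 1.43-fold (0.52, SE 0.15, edgeR adjusted p 0.0245). In KO, Ddit3 fell, a 1.70-fold difference (log2 -0.77, SE 0.17, edgeR adjusted p 0.00442). So 2 of the 10 genes passed the test in WT, both higher, beside 19.3% of the 15541 genes tested and 10.6% called higher. In KO 1 of 10 passed, lower, beside 19.3% of 15568 genes and 8.83% called lower. The median log2 fold change of the 10 was 0.06 in both genotypes, and over all genes 0.01 in WT and -0.01 in KO.

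Atf4 itself did not pass the test, at -0.01 (SE 0.14, edgeR adjusted p 0.96) in WT and -0.30 (SE 0.13, edgeR adjusted p 0.125) in KO. Without d7_KO_420, the highest KO day 7 library, the KO value of Atf4 was -0.42 (SE 0.11, edgeR adjusted p 0.0129) and that of Shmt2 0.30 (SE 0.08, adjusted p 0.0152), against 0.17 with it. Ddit3 was then at -0.74 (SE 0.18, edgeR adjusted p 0.00849), so that 3 of the 10 genes were called in KO in place of 1. Psat1 (0.66, SE 0.25, edgeR adjusted p 0.075) and Trib3 (0.69, SE 0.34, adjusted p 0.177) in WT, and Trib3 (0.74, SE 0.35, adjusted p 0.161), Chac1 (0.71, SE 0.34, adjusted p 0.165) and Psat1 (0.46, SE 0.24, adjusted p 0.207) in KO, had positive values that did not pass. Psat1 in WT passed without d3_WT_381 (0.78, adjusted p 0.0271) or without d7_WT_393 (0.79, adjusted p 0.0186), and Trib3 in KO without d3_KO_388 (1.03, adjusted p 0.0326). Asns in WT lost its call without d3_WT_353 or without d7_WT_356, with adjusted p up to 0.0538. Chac1 kept its call in all 14 such fits and Ddit3 in all 15. Without the library labelled d3_KO_345, Ddit3 in KO was at -0.80 (SE 0.18, edgeR adjusted p 0.00406) and was again the 1 gene called.

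Leukocyte and neutrophil markers moved with day. Of the 12 leukocyte markers 9 rose in WT and 11 in KO, and all 8 neutrophil markers rose in both genotypes, whereas of 8 epithelial markers none changed in WT and 1 fell in KO. In a fit with the leukocyte score, whose ranges on days 3 and 7 did not overlap within a genotype, none of the 10 genes was called: Chac1 in WT was at -0.11 (edgeR adjusted p 0.91), Asns in WT at 0.57 (adjusted p 0.262) and Ddit3 in KO at 0.07 (adjusted p 0.988). In that fit 33 of all genes were called in WT and 0 in KO. The part of the immune cells in these differences was not tested beyond this fit.

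**Figure D2:**
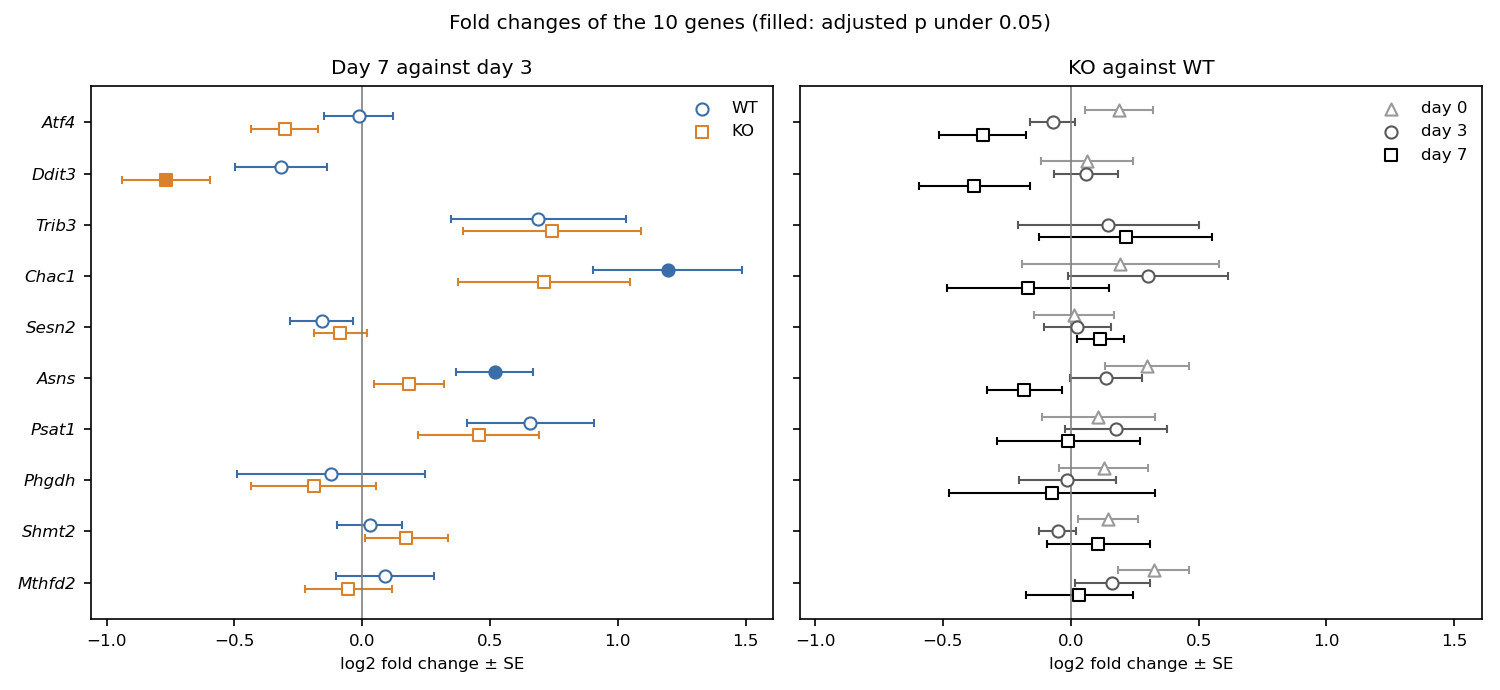
Log2 fold changes of the 10 genes with their SE, for day 7 against day 3 in each genotype (left) and KO against WT on each day (right); filled symbols have an adjusted p under 0.05. The filled symbols are Chac1 and Asns in WT and Ddit3 in KO, all on the left; no Trib3 value is shown for day 0, where it was too low to test.

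Whether the change from day 3 to day 7 differed between genotypes was tested as an interaction. None of the 10 genes passed (edgeR quasi-likelihood test), beside 0 of all 16371 genes tested, and 0 of the 10 had an unadjusted p under 0.05, against 440 (2.69%) of all genes. The KO minus WT difference of the log2 changes was -0.43 (SE 0.26) for Ddit3, -0.32 (SE 0.21) for Asns, -0.47 (SE 0.46) for Chac1 and -0.27 (SE 0.19) for Atf4, each with an edgeR adjusted p of 1. Without d7_KO_420 or without the library labelled d3_KO_345 again none passed. The calls in 1 genotype and not in the other are therefore not shown to differ between genotypes.

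The comparison of KO with WT asked whether loss of epithelial Hk2 moved the genes. No gene of the 10 passed on any day by edgeR or by the Wald test of DESeq2. On day 0, 9 genes were tested and Trib3 was too low; all 9 estimates were above 0, from 0.01 for Sesn2 to 0.32 for Mthfd2, which alone had an unadjusted p under 0.05 (SE 0.14, edgeR adjusted p 0.462). Asns was at 0.30 (SE 0.16, adjusted p 0.543) and Atf4 at 0.19 (SE 0.13, adjusted p 0.63). Of all 14944 genes 0.0335% were called that day, 10.5% had an unadjusted p under 0.05, and 49.4% of all genes had a value above 0. Mthfd2 libraries had 6.09, 7.60, 7.83 and 8.18 CPM in WT and 7.89, 8.80, 9.32, 10.0 and 10.6 CPM in KO, with 1 KO library inside the WT range. The day 0 estimates rest on the smaller libraries, with 10.5 to 17.5 M counts in KO, in which the mitochondrial genome took 9.15 to 17.5% of the counts and, in d0_KO_32, 61.7%. Without that library Sesn2 was at -0.04. Marker genes of other cells also had higher values in KO day 0, none called: the median log2 fold change was 0.83 for 6 stroma and endothelium markers and 1.42 for 6 small intestine enterocyte markers, whose summed level was 305 to 618 CPM in KO and 222 to 451 CPM in WT. Their part in these estimates was not tested.

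On day 3, 7 of 10 estimates were above 0, from -0.07 (SE 0.09) for Atf4 to 0.30 (SE 0.31) for Chac1, beside 0.00647% of all genes called. None had an unadjusted p under 0.05, against 7.88% of all genes. Without the library labelled d3_KO_345 again none passed; Chac1 was at 0.31 (SE 0.33) and Asns moved from 0.14 (SE 0.14) to 0.06 (SE 0.13). On day 7, 4 of 10 were above 0, beside 0.00642% of all genes called, and none had an unadjusted p under 0.05, against 12.9% of all genes. The lowest were Ddit3 at -0.38 (SE 0.22, edgeR adjusted p 0.449) and Atf4 at -0.34 (SE 0.17, edgeR adjusted p 0.4). Asns was at -0.18 (SE 0.15) and Chac1 at -0.17 (SE 0.32), and the highest was Trib3 at 0.21 (SE 0.34). Without d7_KO_420 Atf4 was at -0.46 (SE 0.16, edgeR adjusted p 0.108) and again none of the 10 passed. Over all days, in a fit with day and genotype, estimates ran from -0.11 (SE 0.09) for Atf4 to 0.15 (SE 0.10) for Mthfd2, with 0 of 10 called, also without the library labelled d3_KO_345 or without d7_KO_420, beside 0.0209% of all genes, and 0 with an unadjusted p under 0.05, beside 11.8%. The SE was widest for Chac1, Trib3 and, on day 7, Phgdh (-0.07, SE 0.40), so their estimates are the least precise. No smallest detectable difference is given for them.

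Against day 0 the changes carry the change of library series as well. Atf4 and Shmt2 rose in WT on day 3, with non-overlapping libraries, by 1.78-fold (log2 0.83, SE 0.11, edgeR adjusted p 4.96e-05) and 1.57-fold (0.65, SE 0.11, adjusted p 0.000342). Ddit3 rose 1.46-fold (0.54, SE 0.16, edgeR adjusted p 0.0116). These were 3 of 10 genes, beside 46% of all genes called, and the 2 without overlap stand beside 31.2% of all genes. In KO the same 3 genes rose on day 3, Atf4 by 1.5-fold (0.58, SE 0.11, edgeR adjusted p 0.000539), Ddit3 by 1.46-fold (0.54, SE 0.15, adjusted p 0.00945) and Shmt2 by 1.38-fold (0.46, SE 0.08, adjusted p 0.000383), and Phgdh fell, at -0.49 (SE 0.13, adjusted p 0.00742). That is 4 of 9 tested, beside 46.3% of all genes, and 3 of the 4, all but Ddit3, had no overlap of libraries, beside 23.9% of all genes. The same 4 were called without the library labelled d3_KO_345.

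On day 7 against day 0, 5 of 10 genes rose in WT, beside 56.9% of all genes called: Atf4 (log2 0.82, SE 0.18, edgeR adjusted p 0.00163), Shmt2 (0.68, SE 0.17, adjusted p 0.00373), Asns (0.68, SE 0.18, adjusted p 0.00686), Psat1 (0.81, SE 0.29, adjusted p 0.0284) and Chac1 (1.05, SE 0.40, adjusted p 0.0358). Leaving out d0_WT_31, d0_WT_43 or d0_WT_46 removed Psat1 and Chac1, and leaving out d7_WT_356, d7_WT_370 or d7_WT_419 removed Chac1. In KO Shmt2 (0.64, SE 0.21, edgeR adjusted p 0.018) and Psat1 (0.69, SE 0.28, adjusted p 0.0474) rose. Trib3, with an edgeR adjusted p of 0.0295, brings the count to 3 of 10, beside 54.6% of all genes called. Trib3 had only 2 to 4 counts in each KO day 0 library, at the level of 3 counts, and passed the filter here through KO day 7 alone. No fold is given for it, and its call is not taken as a change. Only Shmt2 stayed called in all 12 fits that left out 1 library of this comparison; without d0_KO_24, d0_KO_53, d0_KO_60 or d7_KO_368, both Trib3 and Psat1 were lost. Without d7_KO_420 the 3 genes were called again, with the same limit for Trib3, and Phgdh fell, at -0.51 (SE 0.15, edgeR adjusted p 0.00994). Atf4 in KO was at 0.29 and did not pass (adjusted p 0.141). The 4 comparisons with day 0 share control libraries within each genotype. Marker genes moved in them too. In day 7 against day 0, 10 of 12 leukocyte markers rose in WT and 11 in KO, all 8 neutrophil markers rose in both, and 6 (WT) and 4 (KO) of 8 tested stroma and endothelium markers rose, 1 falling in WT. On day 3, 4 leukocyte markers rose and 1 fell in WT, 6 rose in KO, and 3 stroma markers rose in WT and none in KO, with 1 falling in each. Of 7 tested small intestine enterocyte markers, 4 fell in KO on day 3 and 3 on day 7, with 1 rising on day 7. In WT 1 fell on each day and 2 rose on day 7. Of the 8 epithelial markers, 1 to 5 rose in each of the 4 comparisons and none fell. Summed leukocyte markers were 35.8 to 246 CPM in WT day 0 and 24.99 to 62.3 CPM in KO day 0. The highest WT day 0 sum was that of d0_WT_41, in which Cd74 alone was 214 CPM. The part of these markers in the changes from day 0 was not tested beyond the fit with the leukocyte score.

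Of 64 further genes of the pathway, in 6 lists, 62 were tested between days 3 and 7. In WT 17 were called, 12 higher and 5 lower, and in KO 10 were called, 4 higher and 6 lower, against the 19.3% of all genes given above. Slc7a11, the cystine importer, stood out by size: it went from a mean of 1.97 to 14.9 CPM in WT (log2 fold change 2.89, SE 0.48, edgeR adjusted p 0.000721) and from 2.91 to 13.3 CPM in KO (2.15, SE 0.36, adjusted p 0.000512). Of the other 8 amino acid transporters tested, Slc1a5, a glutamine importer, fell in both genotypes (-0.50, SE 0.10, in WT and -0.42, SE 0.11, in KO), and the remaining 7 did not pass.

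Among 12 partner factors and stress outputs tested, 4 rose in WT and 2 in KO, and none fell. Eif4ebp1, an inhibitor of cap-dependent translation, rose in both (0.84, SE 0.16, in WT and 0.58, SE 0.16, in KO), as did Ero1l, an oxidase of the endoplasmic reticulum (0.54, SE 0.12, and 0.52, SE 0.13). Atf5, a relative of ATF4, rose in WT (0.71, SE 0.18, edgeR adjusted p 0.0119), as did the secreted stanniocalcin gene Stc2 (0.68, SE 0.17, adjusted p 0.0111). Of 13 genes for charging and exporting tRNA, Gars, Nars, Wars and Mars rose and Yars fell in WT. In KO only Wars, the tryptophanyl-tRNA synthetase, rose (0.70, SE 0.23, edgeR adjusted p 0.0397; 0.51, SE 0.12, in WT).

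Enzymes of amino acid and one-carbon metabolism went both ways. Glul, glutamine synthetase, fell from a mean of 715 to 391 CPM in WT (-0.89, SE 0.16, edgeR adjusted p 0.00154) and from 643 to 336 CPM in KO (-0.97, SE 0.12, adjusted p 4.89e-05). Gpt2, a mitochondrial alanine transaminase, fell likewise (-0.98, SE 0.16, in WT and -1.07, SE 0.20, in KO), and so did the proline synthesis gene Pycr1 (-0.57, SE 0.14, and -0.52, SE 0.17). Got1 and Mthfd1l rose in WT and Aldh1l2 fell in KO, so that 5 of 12 were called in WT and 4 of 12 in KO. None of the 6 genes of eIF2 kinases and their relay was called in either genotype (edgeR, with 2 in WT and 0 in KO at an unadjusted p under 0.05, beside 32.2% and 30.6% of all genes, and likewise none by the Wald test of DESeq2), and of 10 genes of eIF2, its exchange factor and its phosphatase 1 was called in each, Eif2s2 higher in WT and Eif2b3 lower in KO. Without the library labelled d3_KO_345, 10 of the 62 genes were called in KO, with Cth in and Eif2b3 out. Without d7_KO_420 it was 16, 5 higher and 11 lower. Between genotypes, 0 of the wider genes were called on day 0, 3 or 7 or as an interaction by edgeR, with 9, 6, 7 and 1 at an unadjusted p under 0.05, beside the 10.5%, 7.88%, 12.9% and 2.69% of all genes given above, and none was called with the library labelled d3_KO_345 or d7_KO_420 left out. By the Wald test of DESeq2 1 was called on day 0, Slc1a4. The leukocyte and neutrophil marker ranges given above rose over the same days.

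**Figure D3:**
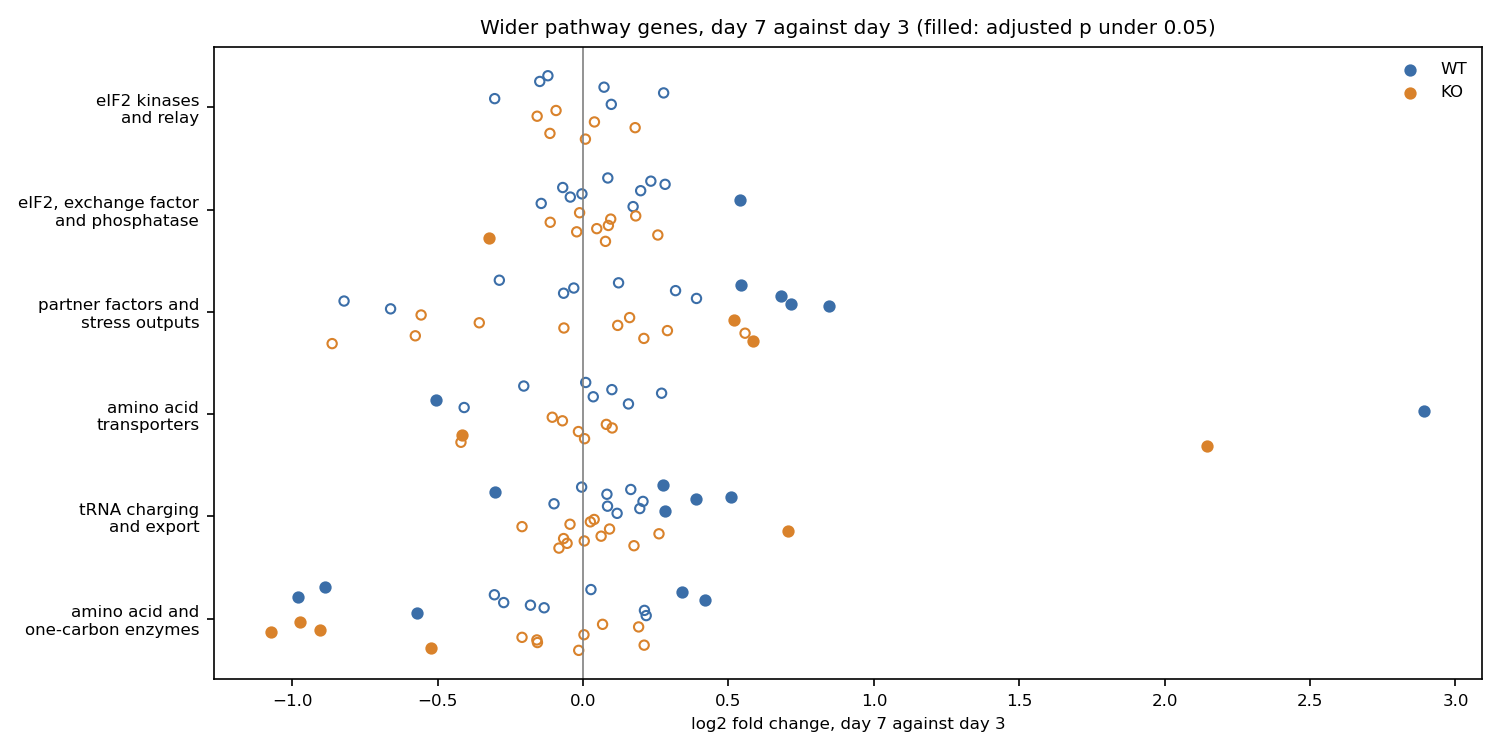
Log2 fold changes of day 7 against day 3 for the 62 tested genes of the 6 wider lists, 1 point per gene, WT in blue and KO in orange; filled points have an adjusted p under 0.05. The point farthest to the right in each genotype is Slc7a11, and filled points of the enzyme list lie mostly below 0.

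Against day 0, 26 wider genes were called on day 3 in each genotype, and 32 in WT and 31 in KO on day 7, of 62 tested. Ddit4, an mTORC1 inhibitor, and Atf5 are examples in WT on day 3, with 1.26 (SE 0.13) and 1.22 (SE 0.17). Eif2ak1, the heme-regulated kinase, rose and Eif2ak4, the amino acid sensor GCN2, fell in all 4 comparisons with day 0; Eif2ak1 went from 44.75 to 61.7 CPM and Eif2ak4 from 35.1 to 24.7 CPM in WT by day 3. Without the library labelled d3_KO_345, 25 were called in KO on day 3, and without d7_KO_420, 35 in KO on day 7. These counts stand beside 46% to 56.9% of all genes called, and the change of series and the marker changes apply to them as well.

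Within groups the 10 genes did not move as 1 set. The log2 CPM of each library was centred on its group, and the 45 pairs of genes were correlated over the 38 libraries; points share the library, its depth and its cell mixture. The median Pearson r was 0.04, with 26 pairs above 0 and 13 pairs with an adjusted p under 0.05 (permutation of libraries within groups, 100000 orders, two-sided, adjusted over 45 pairs), 11 of them positive. The share of all gene pairs that would pass the same test is not given here. The count is therefore not shown to be particular to these 10 genes. Psat1 and Phgdh were the closest pair, with r of 0.853 and rho of 0.793 (permutation p 1e-05 for each, the smallest these permutations can give; adjusted p 0.00015 and 0.00023). The r was 0.743 in the 9 day 0 libraries, 0.872 in the 29 others, and 0.778 without the 2 libraries farthest out in Psat1. Mthfd2 followed both, with r of 0.806 and rho of 0.637 for Phgdh and r of 0.785 and rho of 0.688 for Psat1 (permutation adjusted p 0.00015 for each r); without the 2 farthest libraries r was 0.742 and 0.692. Shmt2 went with Phgdh at r of 0.755 and rho of 0.547 (permutation adjusted p 0.0013), but with r of 0.166 in the day 0 libraries, 0.793 in the others and 0.595 without the 2 farthest.

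Atf4 went with Ddit3 (r 0.67, rho 0.714, permutation adjusted p 0.00099 and 0.00056; 0.815 on day 0 and 0.641 in the others; 0.742 without the 2 libraries farthest out in Atf4) and against Shmt2 (r -0.558, permutation adjusted p 0.034; rho -0.42, adjusted p 0.064; r -0.58 without the 2 farthest). Ddit3 went against Psat1 (r -0.473, rho -0.58, permutation adjusted p 0.041 and 0.0051; r -0.401 without the 2 farthest in Ddit3). Asns was closest to Mthfd2 (r 0.597, rho 0.684, permutation adjusted p 0.0017 and 0.00023; r 0.59 without the 2 farthest), and Chac1 to Trib3 (r 0.496, rho 0.514, permutation adjusted p 0.022 and 0.014), the latter with -0.011 on day 0, 0.612 in the others and 0.519 without the 2 farthest. Asns and Atf4 had an r of -0.103, and Sesn2 had no r above 0.062 with any of the other 9. The map of deviations shows single libraries, and also runs of neighbouring animal numbers, in the pattern. Atf4 was below its group mean in d7_KO_366, d7_KO_367 and d7_KO_368 (log2 -0.325, -0.364 and -0.213). It was above it in the other KO day 7 libraries. In KO day 3 it was above in d3_KO_345, d3_KO_349, d3_KO_350 and d3_KO_351 and below in the rest. In WT day 7 Atf4 was below its group mean in d7_WT_356, d7_WT_361 and d7_WT_370 (log2 -0.11, -0.377 and -0.4), neighbours in number of d7_KO_366 to d7_KO_368. It was also below in d7_WT_419 and above in the other WT day 7 libraries. Ddit3 was below its group mean in all of these WT and KO libraries and in d7_KO_420, and above it in the other day 7 libraries. WT day 3 had mixed signs of Atf4 along the numbers. The permutations treat libraries of a group as exchangeable, and the part of such runs was not tested. In d7_KO_420 and d7_WT_393, Phgdh (1.81 and 2.25 CPM), Shmt2 (12.3 and 16.9 CPM) and Mthfd2 (5.18 and 5.75 CPM) were the lowest of their groups while Atf4 was at 350.2 and 380.7 CPM. In d7_WT_386 Phgdh, Psat1, Shmt2, Mthfd2 and Atf4 were all the highest of the group. That library had the fewest counts (25.2 M) of the DSS libraries and the highest mitochondrial-genome share of day 7 (26.6%, others 10.9 to 17.4%), whose part in this was not tested.

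**Figure D4:**
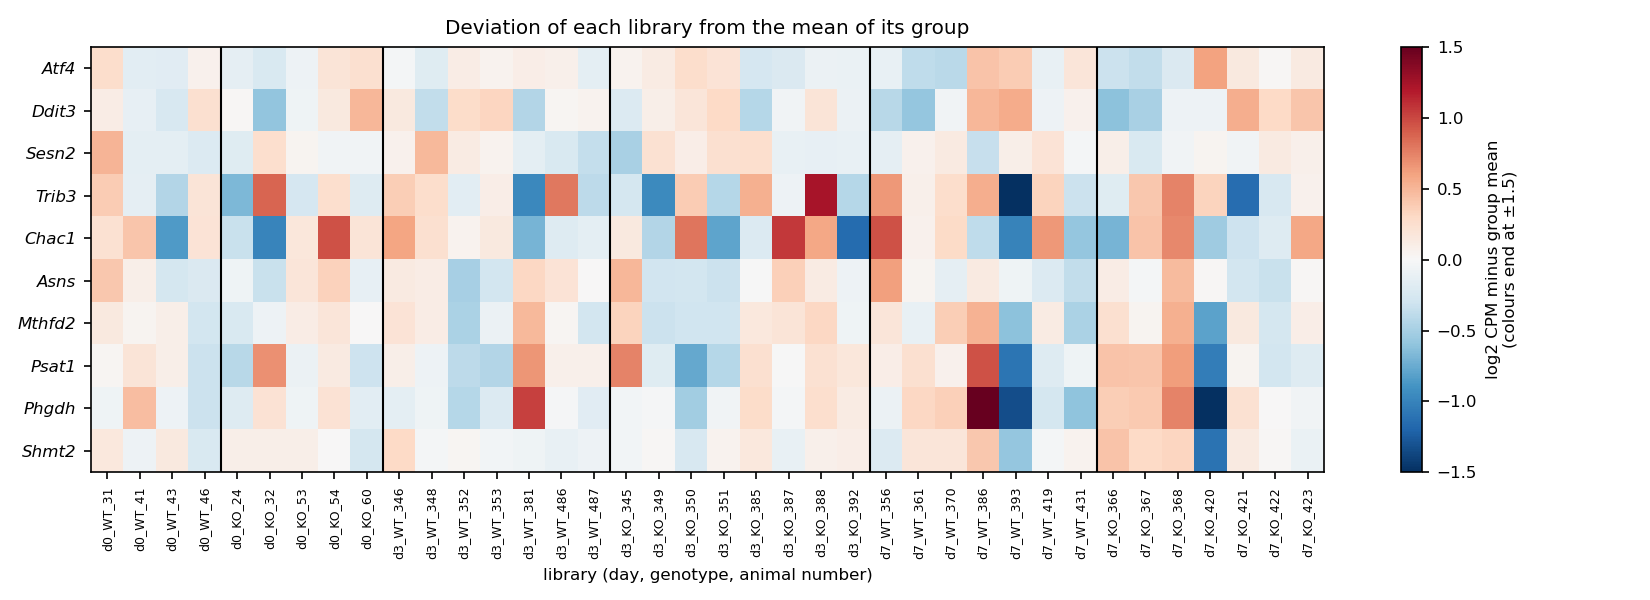
Deviation of log2 CPM from the group mean for the 10 genes (rows) in the 38 libraries (columns, black lines between groups); red is above the group mean and blue below. Psat1, Phgdh, Shmt2 and Mthfd2 share their dark columns, such as d7_KO_420, in blue, while Atf4 is red there.

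Among 12128 genes with a mean of at least 1 CPM, those most like each of the 10 in these centred values were as follows, as a description with no test. Atf4 was followed most closely by Arl4a (r 0.84), Pnrc1 (0.83) and Pdp1 (0.811), and Ddit3 by Plk2 (0.862), Atf3 (0.833) and Btg2 (0.796). For Chac1 they were Edem1 (0.794), Edem3 (0.709) and Kcnk6 (0.699), and for Asns Nucb2 (0.857), Sec61a1 (0.85) and Ap3m1 (0.848). Mthfd2 was closest to Sdf2l1 (0.891), Pdia6 (0.883) and Creld2 (0.828). Psat1 was closest to Cks1b (0.876), Rrm1 (0.868) and Ranbp1 (0.86), Phgdh to Ccne2 (0.897), Aunip (0.875) and Rrm1 (0.871), and Shmt2 to Cstf2 (0.885), Rmi2 (0.879) and Kbtbd8 (0.876). Sesn2 was closest to Slc25a44 (0.78), Vav3 (0.765) and Pdxk (0.762). Trib3, the gene with the fewest counts, had the lowest values, with Desi2 (0.581), Aggf1 (0.55) and Klhl11 (0.534). None of the 3 genes nearest to any of the 10 was another of the 10; the nearest was Phgdh, in place 4 for Psat1.

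**Figure D5:**
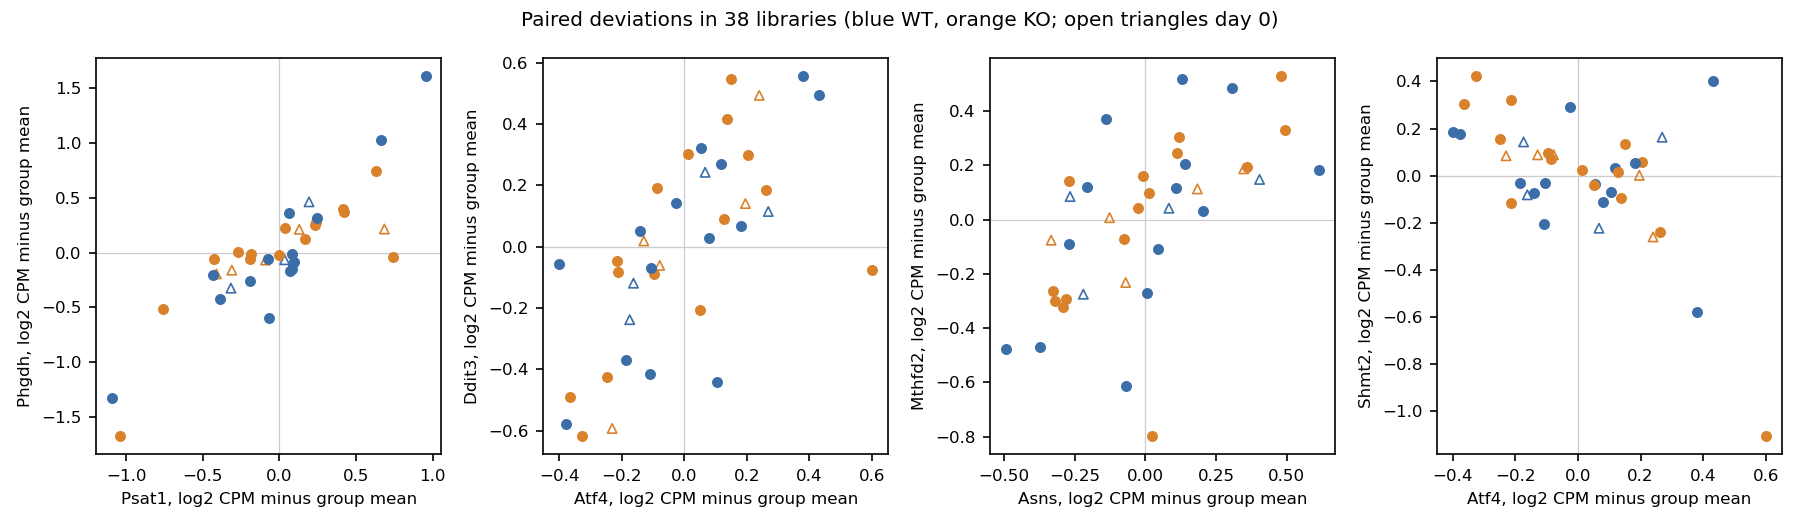
Paired deviations from the group mean (log2 CPM) in the 38 libraries for 4 pairs of genes; WT in blue, KO in orange, day 0 as open triangles. Points rise together for Psat1 and Phgdh (r 0.853), Atf4 and Ddit3 (r 0.67) and Asns and Mthfd2 (r 0.597), and run the other way for Atf4 and Shmt2 (r -0.558).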

How the data were processed

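The deposited tables give unnormalised whole-number counts for each gene, made by the authors with featureCounts 1.6.2 on paired reads with strand ignored, per the file headers. The submitters' processing notes name Trim Galore, STAR, featureCounts 1.5.2 and the build GRCm38. Per the labels, stranded mRNA libraries were sequenced as 50-base pairs. The 2 lanes of each of the 38 libraries were summed (correlation between lanes at least 0.989), no 2 libraries held identical values, and gene types are from GENCODE M21, which holds 45229 of the 46078 identifiers. Groups follow the genotype and day in the labels, and titles give a separate animal number for each library.

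Genes were tested with the edgeR 4.0.16 quasi-likelihood test (R 4.3.3) on the compared groups alone, with TMM scaling, the filter on expression by group and Benjamini-Hochberg adjustment over all genes tested. An adjusted p under 0.05 was called. SE are the absolute log2 fold change divided by the root of F. CPM are TMM-scaled over all libraries. Alternatives were DESeq2 1.42.0 size factors, its Wald test, the edgeR test on every gene with any count or only on genes with a mean CPM of at least 1, 1 model for all libraries, the counts without immunoglobulin and mitochondrial-genome genes, a leukocyte score covariate (mean log2 CPM, prior count 2) and leaving out each library. The test was checked on simulated counts.

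The 10 genes, the wider lists and the markers were chosen with earlier results of these data known. Named are the 10 genes, up to 4 called genes per wider list and comparison with the largest fold changes, some others counted in a list, and for each of the 10 the 3 genes with the highest correlation of group-centred log2 CPM, among genes with a mean CPM of at least 1 and a symbol that is not a clone name. The SD given are between the libraries of a group, and the SE come from fits over those libraries. A level of 3 counts was taken as the smallest a library could show.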

Additional observations from a re-analysis of the deposited data

Results flagged for a closer look

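In 7 of 60 combinations of a gene and a group, 1 library stood apart from the others of its group by Dixon's criterion. The nominal rate of that criterion is about 1 in 20, for independent values. The combinations share libraries, and the share over all genes is not given here. The count is therefore not shown to be particular to these genes. Asns was 66.4 CPM in d7_WT_356, against 33.4 to 47.4 CPM in the other WT day 7 libraries. Phgdh was 17.5 CPM in d7_WT_386 (others 2.25 to 7.34 CPM) and 14.3 CPM in d3_WT_381 (others 5.19 to 6.94 CPM). The same library d3_WT_381 had 12.6 CPM of Psat1, against 5.85 to 8.40 CPM in the others. Shmt2 was 30.5 CPM in d3_WT_346 (others 23.0 to 25.4 CPM) and 14.6 CPM in d0_KO_60 (others 17.5 to 18.6 CPM). Sesn2 was 25.9 CPM in d0_WT_31 (others 15.8 to 16.5 CPM). The libraries d3_WT_381 and d7_WT_386 had the fewest counts of the DSS libraries (26.7 and 25.2 M) and the highest shares of the mitochondrial genome among them (41.7% and 26.6%), whose part in these values was not tested.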

How the results depend on the processing

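No paired analysis was possible because each number in the labels names 1 animal and no number recurs across groups. With the leukocyte score as covariate, the counts of the 10 genes called fell to 0 (day 7 against day 3 in WT and in KO, and KO day 7 against day 0), 1 (WT day 7 against day 0) and 2 (KO day 3 against day 0), and those of the wider genes to 0, 0, 0, 8 and 7 in the same order; all genes called went from 3002 to 33 in WT and from 3008 to 0 in KO between days 3 and 7, from 9919 to 4311 and 8938 to 299 on day 7 against day 0 in WT and KO, and from 7409 to 3514 in KO on day 3 against day 0. Between days 3 and 7 the score's ranges did not overlap within a genotype, so this fit has little left to compare. Under it the direction turned between days 3 and 7 for Chac1 (-0.106) and Atf4 (0.268) in WT, and for Atf4 (0.022), Asns (-0.439), Ddit3 (0.075), Gpt2 (0.105), Slc1a5 (0.098), Eif4ebp1 (-0.089) and Ero1l (-0.067) in KO. Against day 0 it turned in WT on day 7 for Chac1 (-0.957), Phgdh (0.058), Glul (0.259) and Slc7a11 (-1.732), in KO on day 7 for Slc7a11 (-0.228), Lars (0.038), Cebpb (-0.272) and Ero1l (-0.378), and in KO on day 3 for Wars (-0.122). No other alternative turned a called value of these genes.

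The fit of all libraries put Atf4 in WT, day 7 against day 3, at 0.00508, and the test without a filter put Sesn2, KO against WT on day 0, at -0.00228. A mean CPM of at least 1 left 1 of the 10 genes called in KO on day 7 against day 0, in place of 3. Of the wider genes, the DESeq2 Wald test called 1 between genotypes on day 0 (Slc1a4) and the fit of all libraries 1 on day 7 (Atf5). Over all genes, the DESeq2 Wald test called 165, 99 and 21 between genotypes on day 0, on day 7 and over all days, in place of 5, 1 and 4; without a filter 52 were called on day 0, and the fit of all libraries called 38 on day 7. The Wald test moved the median of all genes against day 0 to between -0.12 and -0.164, and the calls of the 10 genes there did not change.

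Leaving out 1 library at a time gave 1 to 3 genes of the 10 between days 3 and 7 in each genotype, 3 to 6 in WT and 1 to 4 in KO on day 7 against day 0, and 7 to 16 wider genes in KO between days 3 and 7. It turned the direction of values that did not pass: KO against WT on day 0 for Chac1 (-0.105 to 0.363), Ddit3 (-0.071 to 0.189) and Sesn2 (-0.059 to 0.212), on day 3 for Ddit3 (-0.00916 to 0.114), on day 7 for Chac1 (-0.307 to 0.019), and Atf4 in WT between days 3 and 7 (-0.106 to 0.049). Depth limits Trib3 most.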
